A study of Mus musculus with 8 samples.

Results

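The 10 genes described here are *Cd3d*, *Cd3e*, *Cd3g*, *Cd4*, *Cd8a*, *Cd8b1*, *Trbc2*, *Cd2*, *Gzmb* and *Nkg7*, a set of T cell and cytotoxic lymphocyte genes chosen by name. They are 10 of the 55291 genes with counts in lumbar spinal cord RNA-seq of 8 male SOD1G93A mice, and all 10 were found in the count table. The comparison was between 2 genotypes of 4 mice each. E1776, E5231, E5248 and E5568 were SOD1G93A with *Ager* fl/fl and *Cx3cr1* Cre/+, so that the gene for the receptor RAGE was deleted on induction (*Ager*-deleted mice). E5386, E5642, E6578 and E6732 were SOD1G93A with *Ager* +/+ and *Cx3cr1* Cre/+ (controls, which also express Cre). Values per mouse are given in this order throughout. All 8 mice were on a C57BL/6J background, carried the mutant human *SOD1* transgene and the tamoxifen-inducible Cre, and received tamoxifen, at 12 weeks of age by the labels and a few days later by the study's text. According to the labels every mouse was 120 days old, whereas the study's text places the tissue at end-stage. No mice without the *SOD1* transgene or without Cre were sequenced among these 8, so levels in a healthy cord are not analysed here. The Cre is driven by *Cx3cr1*, which microglia and other mononuclear phagocytes express, while the RNA is from all cells of the cord.

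The T cell receptor is a pair of chains that recognizes antigen, and it is held at the membrane and linked to signaling by the CD3 chains. The coreceptors CD4 and CD8 divide T cells into helper and cytotoxic lineages, and cytotoxic T cells and natural killer cells kill targets by releasing granules that hold granzymes. T cells are scarce in the healthy spinal cord and have been described in the cord of SOD1G93A mice as disease advances. In RNA from whole tissue, fewer lymphocytes and less RNA per lymphocyte cannot be told apart, and the same holds for more.

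On GRCm38, *Cd3g* lies on chromosome 9 from 44969572 to 44980431 on the reverse strand, *Cd3d* from 44981786 to 44987339 on the forward strand and *Cd3e* from 44998740 to 45009627 on the reverse strand. The gap between *Cd3g* and *Cd3d* is 1354 bp. *Cd3e* overlaps the annotated genes *Gm48720* on the same strand and *Gm48719* on the opposite strand, so the level of *Cd3e* is uncertain. *Cd8b1* and *Cd8a* are neighbours on chromosome 6, from 71322788 to 71337494 and from 71373427 to 71379173. *Trbc2*, one of the constant genes of the T cell receptor beta chain, lies on chromosome 6 from 41546730 to 41548352, and its close copy *Trbc1* begins upstream at 41538218. *Cd4* lies on chromosome 6 from 124864692 to 124888221, *Cd2* on chromosome 3 from 101275899 to 101287939, *Gzmb* on chromosome 14 from 56258838 to 56262260 and *Nkg7* on chromosome 7 from 43437073 to 43438249.

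The sequences of *Trbc1* and *Trbc2* are shown because they set how far reads of the 2 genes can be separated. Both have 518 coding bases in the reference, with 23 substitutions and 95.6% identity. The first 120 coding bases, inside the first exon, are identical in *Trbc1* (chr6:41538218-41538337, forward strand) and *Trbc2* (chr6:41546730-41546849, forward strand) and are therefore printed once in lower case.
Trbc1 and Trbc2, coding bases 1 to 120: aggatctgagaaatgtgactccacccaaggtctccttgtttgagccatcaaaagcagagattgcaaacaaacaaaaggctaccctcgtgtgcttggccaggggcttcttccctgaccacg
The last 120 coding bases, read across exon junctions between chr6:41539234-41539662 for *Trbc1* and chr6:41547777-41548178 for *Trbc2*, hold 19 of the 23 substitutions, which are in capitals.
Trbc1, coding bases 399 to 518: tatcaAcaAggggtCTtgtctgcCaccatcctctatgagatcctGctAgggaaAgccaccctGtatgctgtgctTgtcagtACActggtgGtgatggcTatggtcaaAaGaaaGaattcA
Trbc2, coding bases 399 to 518: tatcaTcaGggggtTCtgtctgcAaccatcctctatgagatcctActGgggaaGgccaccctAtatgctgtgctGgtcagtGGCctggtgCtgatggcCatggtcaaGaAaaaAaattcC
The longest stretch shared without a substitution is 259 bases, and 30.9% of the 100-base windows of the *Trbc2* transcript also occur in *Trbc1*. Reads that lie wholly within the shared part cannot be assigned to either gene by sequence, and how the counting treated them is not given in the sources used here. The *Trbc2* level is therefore uncertain.

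As a check of the deletion, *Ager* was at 1.19 ± 0.287 (*Ager*-deleted) and 2.08 ± 0.382 CPM (control; SD, n = 4 each). The difference of the mean log2 CPM was -0.79 (p = 0.0286 by exact permutation, two-sided, which is the lowest that 4 against 4 can give), and edgeR's exact test gave a log2 fold change of -0.81 with adjusted p = 0.252. *Ager* in E5231 was 1.51 CPM, the highest of the *Ager*-deleted mice and close to 1.53 CPM in control E5386, from 56 counts each. The RNA is from all cells of the cord, so the deletion in the microglia of each mouse was not measured.

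All 10 genes were expressed at very low levels. For none of them did the genotypes differ beyond the spread between mice, and the clearest departure was that of 1 *Ager*-deleted mouse, E5231. Each mouse had between 31148047 and 40324897 counts in all, so the detection floor of 3 counts equals 0.0744 to 0.0963 CPM. CPM is the count of a gene scaled to the library total, here after normalization by trimmed means (TMM). The floor alone is given without TMM, so a level from 3 counts can lie slightly outside it, as 0.0975 CPM of *Cd8b1* in E6578. The mean level over the 8 mice ranged from 0.147 CPM for *Gzmb* to 1.36 CPM for *Cd4*, and the total over all 8 mice was between 43 and 396 counts per gene. *Gzmb* was at 2 or 3 counts in 3 mice. The cord itself carried the neuronal *Snap25*, between 1160 and 1780 CPM, the oligodendrocyte *Mbp*, between 11000 and 13700 CPM, and the microglial *Cx3cr1*, between 75.5 and 123 CPM.

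Levels were also divided by the summed length of all annotated exons of each gene. This adjusts for length only roughly, because the transcripts present may not hold all of these exons. By this measure *Trbc2* was highest with 0.941 ± 0.338 CPM per kb (SD, n = 8) and *Cd3e* lowest with 0.0792 ± 0.0413 CPM per kb (SD, n = 8). The levels of *Trbc2* and *Cd3e*, the ends of this order, are uncertain for the reasons given above. *Nkg7*, a granule membrane protein of cytotoxic T cells and natural killer cells, was next to *Trbc2* with 0.638 ± 0.314 CPM per kb (SD, n = 8), and *Cd4* followed with 0.338 ± 0.207 CPM per kb (SD, n = 8). *Cd2*, *Cd8a*, *Cd3d*, *Cd8b1*, *Cd3g* and *Gzmb* followed in that order, between 0.18 and 0.103 CPM per kb. Each gene's range over the 8 mice overlapped that of its neighbour in this order.

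The CD3 chains are given first because they are shared by all T cells. *Cd3d* read 0.254, 0.431, 0.254 and 0.233 CPM across *Ager*-deleted mice, while controls read 0.246, 0.154, 0.228 and 0.219 CPM. Mouse E5231 stood above the other 7, which lay close together, and the genotypes overlapped only through E5386 and E5568. The difference of the mean log2 CPM, *Ager*-deleted minus control, was 0.36 (exact two-sided permutation test over 70 assignments, p = 0.0571, where the smallest possible p is 0.0286). Without E5568 the groups no longer overlapped and the difference was 0.44, and they did not overlap without E5386 either. Since the overlap rested on these mice, leaving out either was bound to separate the groups. The share of all genes tested that separated in these sets is not given here.

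*Cd3e*, in the same order of mice, read 0.33, 0.62, 0.0847 and 0.31 CPM across *Ager*-deleted mice, while controls read 0.246, 0.371, 0.163 and 0.462 CPM. The highest and the lowest mouse were both *Ager*-deleted. *Cd3g* read 0.279, 0.431, 0.31 and 0.62 CPM across *Ager*-deleted mice, while controls read 0.301, 0.309, 0.26 and 0.365 CPM. For this chain E5568, not E5231, was highest, and the controls lay within a narrow range. The 3 chains together summed to 1.04 ± 0.361 (*Ager*-deleted) and 0.832 ± 0.166 CPM (control; SD, n = 4 each), from between 20 and 55 counts per mouse, and the groups overlapped.

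*Trbc2* read 0.305, 1.05, 0.847 and 0.465 CPM across *Ager*-deleted mice, while controls read 0.684, 0.525, 0.748 and 0.584 CPM. The 4 controls all lay inside the range of the *Ager*-deleted mice. *Cd2*, an adhesion receptor of T cells and natural killer cells, read 0.254, 0.593, 0.226 and 0.207 CPM across *Ager*-deleted mice, while controls read 0.246, 0.34, 0.228 and 0.413 CPM. E5231 was again highest, and the remaining *Ager*-deleted mice lay at the lower end.

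*Cd4*, the coreceptor of helper T cells that some myeloid cells also carry, read 0.533, 1.78, 1.02 and 1.37 CPM across *Ager*-deleted mice, while controls read 0.137, 2.59, 1.2 and 2.29 CPM. Its lowest and highest values, from 5 and 84 counts, were both in controls. *Cd8a*, the CD8 alpha chain, read 0.203, 1.32, 0.367 and 0.465 CPM across *Ager*-deleted mice, while controls read 0.301, 0.71, 0.455 and 0.413 CPM. *Cd8b1*, the CD8 beta chain, read 0.127, 0.512, 0.0847 and 0.129 CPM across *Ager*-deleted mice, while controls read 0.191, 0.154, 0.0975 and 0.0973 CPM. Both CD8 chains were highest in E5231, whereas the other 3 *Ager*-deleted mice overlapped the controls.

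*Gzmb*, which encodes granzyme B, read 0.0508, 0.189, 0.0847 and 0.207 CPM across *Ager*-deleted mice, while controls read 0.082, 0.185, 0.163 and 0.219 CPM. These values rest on 2 to 9 counts per mouse, and both genotypes covered nearly the same range. *Nkg7* read 0.33, 1.16, 0.226 and 0.439 CPM across *Ager*-deleted mice, while controls read 0.547, 0.587, 0.748 and 0.632 CPM. E5231 was the highest of all mice for *Nkg7*, and the other 3 *Ager*-deleted mice were the lowest.

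**Figure D1:**
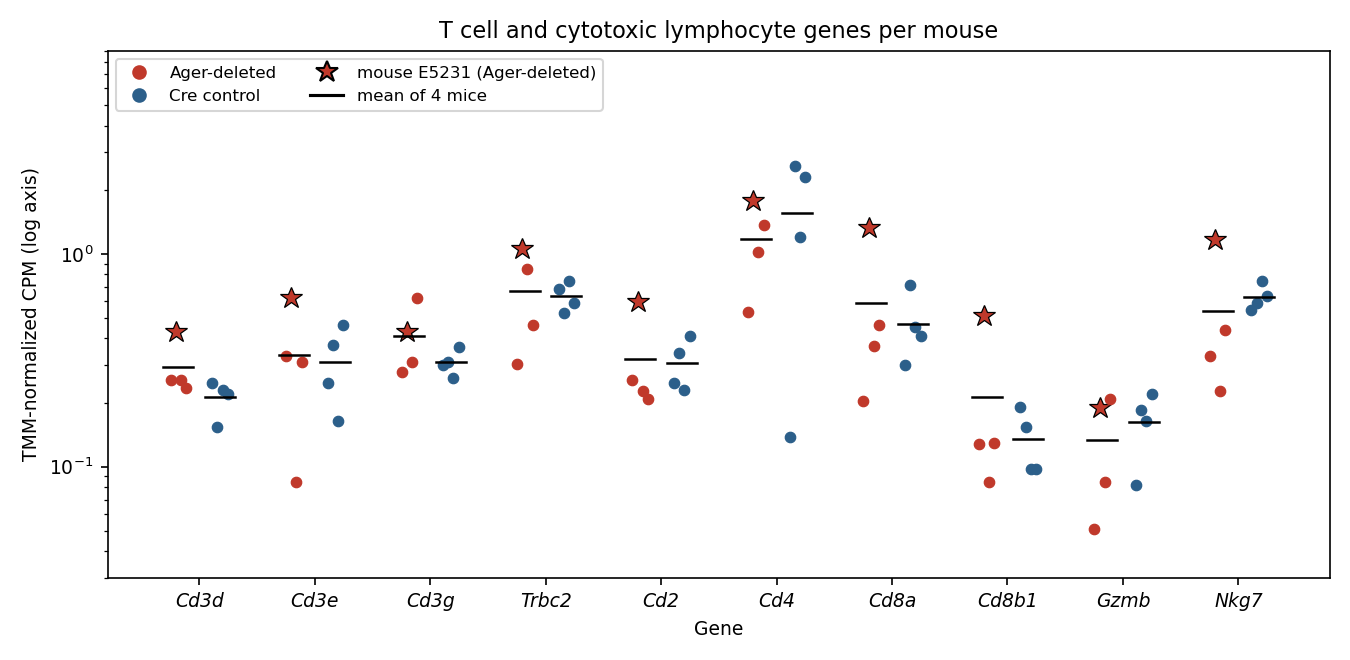
TMM-normalized CPM of the 10 genes on a log axis, with 1 point per mouse, *Ager*-deleted mice in red, controls in blue and black lines at the mean of 4 mice. The star marks mouse E5231, which was highest for 7 of the 10 genes, and the genotypes overlapped for every gene.

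Of the 10 genes, 6 passed the filter on low counts and were tested with all 19470 genes (*Cd3e*, *Cd3g*, *Cd4*, *Cd8a*, *Trbc2* and *Nkg7*), while *Cd3d*, *Cd8b1*, *Cd2* and *Gzmb* were below it. None of the 6 had an adjusted p under 0.05 in edgeR's exact test, in which 14 genes (0.0719%) of all 19470 were called, and each of the 6 had an adjusted p of 1. None was called by edgeR's quasi-likelihood test, in which 1 gene (0.00514%) was called, or by DESeq2 or limma-voom. At an unadjusted p under 0.05 the exact test counted 0 of the 6, against 829 (4.26%) of all genes tested. The genotypes overlapped for all 10 members, whereas they did not overlap for 755 (3.88%) of the genes tested.

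The log2 fold changes of the tested genes, *Ager*-deleted over control, had a median of 0.08, against 0.00692 for all genes tested. *Cd3g* had the largest positive value among the 6, 0.40, with a 95% interval from -0.28 to 1.08 in the quasi-likelihood fit, and 0.12 without E5568. *Cd4* had the lowest, -0.40 in the exact test, and the quasi-likelihood fit gave an interval from -1.78 to 0.96. The *Cd4* value was -0.80 without E5386 and -0.05 without E5642, and the difference of its mean log2 CPM was 0.03, of the opposite sign. The values were 0.10 for *Cd3e*, 0.33 for *Cd8a*, 0.07 for *Trbc2* and -0.22 for *Nkg7*, with standard errors between 0.36 and 0.52 from the quasi-likelihood fit. The intervals of *Cd8a*, from -0.83 to 1.49, and *Trbc2*, from -0.72 to 0.85, both held differences in either direction.

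With no filter the exact test gave log2 fold changes of 0.46 for *Cd3d*, 0.65 for *Cd8b1*, 0.05 for *Cd2* and -0.29 for *Gzmb*, each with an adjusted p of 1. Their intervals, from quasi-likelihood fits with lower count minimums, reached from -0.25 to 1.15 for *Cd3d* and from -0.57 to 1.86 for *Cd8b1*. For each of the 10 genes the interval included 0 and was wide, so a moderate difference was not detectable at this depth and number of mice. For *Cd3d* and *Cd3g* this held mainly for an increase, since their intervals reached down only to -0.25 and -0.28. For the other genes it held in either direction. The exact permutation test on the mean log2 CPM of each gene gave p between 0.0571 for *Cd3d* and 1 for *Cd3e* and *Cd4*.

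**Figure D2:**
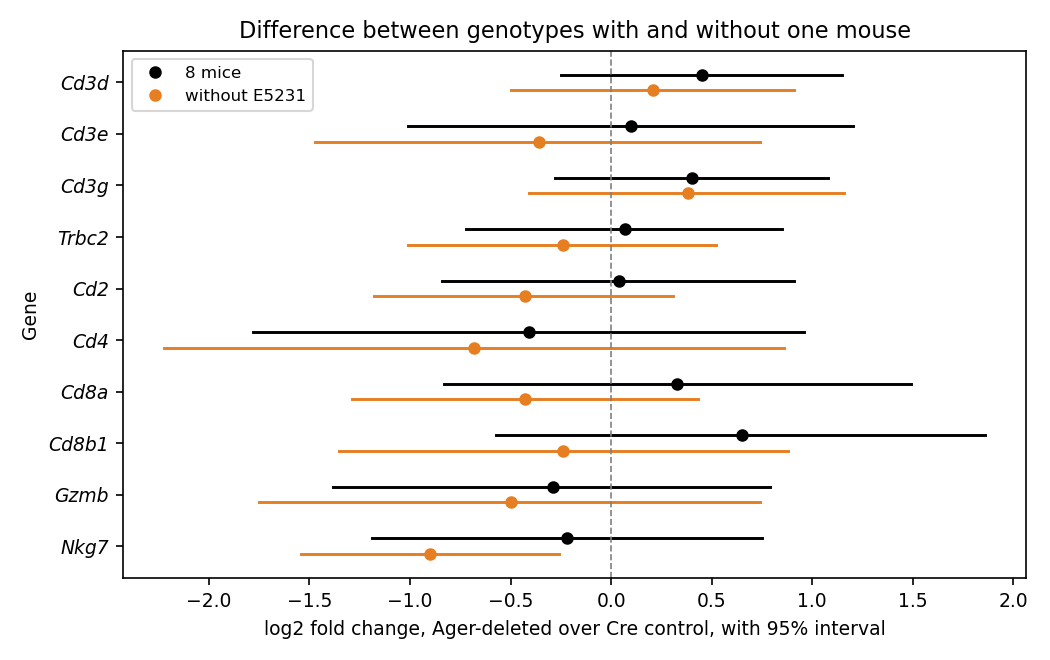
Log2 fold change of each gene, *Ager*-deleted over control, with its 95% interval from edgeR's quasi-likelihood fit. Black is for all 8 mice and orange for the 7 mice without E5231, and the dashed line marks 0. All black intervals include 0, and the orange interval of *Nkg7* runs from -1.54 to -0.26.

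Mouse E5231 stood apart among the *Ager*-deleted mice. Without it the SD of *Cd8a* in that genotype was 0.132 CPM (n = 3) in place of 0.5 CPM (n = 4), and that of *Nkg7* 0.107 in place of 0.423 CPM. E5231 was singled out after its values were seen, as the highest mouse for both genes, so this fall follows from leaving it out. E5231 had the highest level of *Cd3d*, *Cd3e*, *Cd2*, *Cd8a*, *Cd8b1*, *Trbc2* and *Nkg7*, 7 of the 10 genes, whereas it was highest for 17.1% of all genes tested. The fold over the median of the other 7 mice was 4.03 for *Cd8b1*, 3.2 for *Cd8a*, 2.41 for *Cd2*, 2.12 for *Nkg7*, 2 for *Cd3e*, 1.85 for *Cd3d* and 1.8 for *Trbc2*. For the remaining genes it was 1.48 for *Cd4*, 1.4 for *Cd3g* and 1.16 for *Gzmb*. The CD8 chains thus stood out more than the CD3 chains, and *Cd4* in E5231 was below that of controls E5642 and E6732. The *Cd8b1* fold rests on 19 counts in E5231 against 3 to 7 in each other mouse. The 10 genes were read from the same mouse and are not independent of each other.

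Summed over the 10 genes, E5231 had 8.09 CPM from 300 counts (95% exact Poisson interval from 7.2 to 9.06 CPM, which covers counting error only). The other mice were between 2.67 CPM in E1776 and 5.93 CPM in E5642, and the interval of E5642 reached 6.83 CPM, below that of E5231. The genotype means of 4.68 ± 2.39 CPM (SD, n = 4) for *Ager*-deleted mice and 4.72 ± 1.37 CPM (SD, n = 4) for controls were nearly equal, with the highest and the lowest mouse both *Ager*-deleted. Without *Cd4* the sum was 3.5 ± 1.91 and 3.17 ± 0.254 CPM (SD, n = 4 each).

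**Figure D3:**
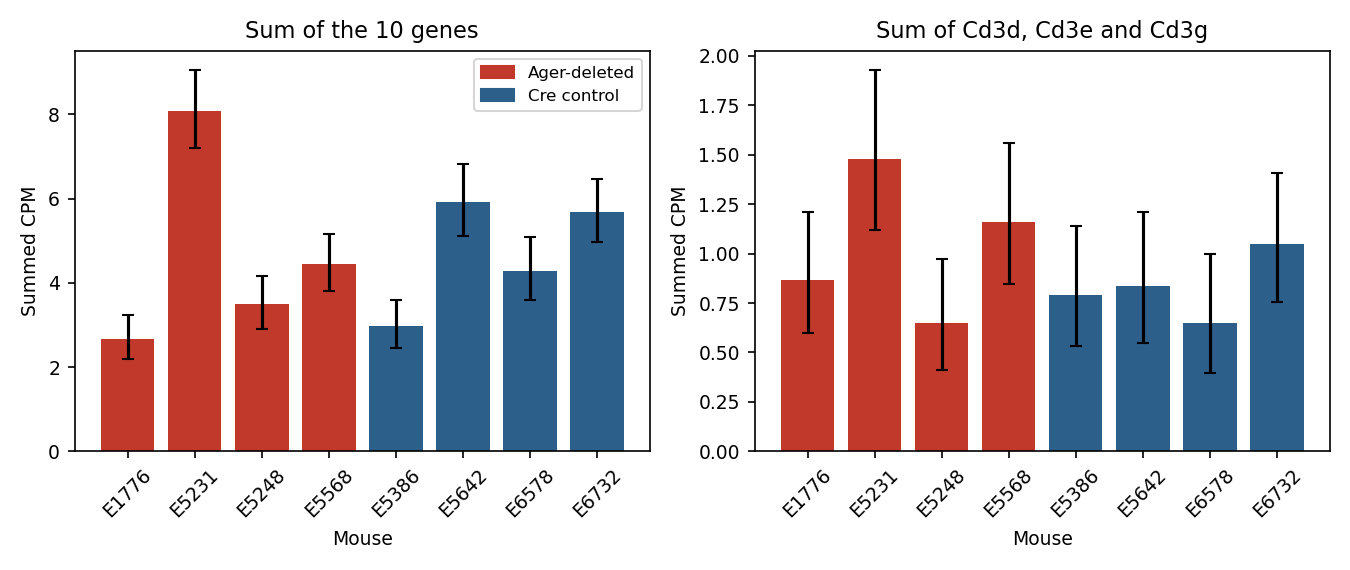
Summed CPM per mouse of the 10 genes (left) and of *Cd3d*, *Cd3e* and *Cd3g* (right), *Ager*-deleted mice in red and controls in blue, with 95% exact Poisson intervals of the counts. E5231 reached 8.09 CPM for the 10 genes against at most 5.93 CPM elsewhere, while its CD3 interval, from 1.12 to 1.93 CPM, overlapped that of several other mice.

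The variation within genotypes was compared with counting error by the chi-square of the counts over its 6 degrees of freedom, which is near 1 where mice differ by counting error alone. This dispersion index was 0.675 for *Cd3d*, 1.22 for *Cd3g* and 1.24 for *Gzmb*, genes in which mice of the same genotype differed little beyond counting error. It was 2.4 for *Cd2*, 3.56 for *Cd3e*, 3.64 for *Trbc2*, 3.79 for *Cd8b1* and 6.34 for *Nkg7*. *Cd8a* had 9.1 and *Cd4* had 18.9; *Cd4* is the gene with the most counts, and for the same relative spread the index grows with the counts.

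Without E5231 the log2 fold change of *Cd3e* was -0.36, that of *Cd8a* -0.43 and that of *Trbc2* -0.24, all of the opposite sign to the value with 8 mice. *Cd8b1* likewise had -0.24 and *Cd2* -0.43 in the quasi-likelihood fit, whereas *Cd3g* had 0.38 and *Cd3d* 0.21, against 0.40 and 0.45 with 8 mice in the same fit. For *Nkg7* edgeR's exact test gave -0.90 with p = 0.00838, adjusted to 0.753, and it was the only 1 of the 6 tested genes with an unadjusted p under 0.05, where 4.77% of all genes tested reached it. All 4 controls then lay above the 3 remaining *Ager*-deleted mice, whose mean was 0.332 ± 0.107 CPM (SD, n = 3) against 0.628 ± 0.0868 CPM (SD, n = 4). Genes with every remaining *Ager*-deleted mouse below every control made up 3.66% of those tested. E5231 was singled out after its values were seen, so the *Nkg7* value is a description, and it failed the correction for all genes.

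Markers of other blood and marrow cells, muscle, fat and liver were measured because a dissected cord can carry them. In E5231 bone marrow progenitor markers (10 genes, among them *Mpo* and *Elane* of granulocyte precursors) summed to 110 CPM, against 14.6 CPM in E1776, and 24.5 CPM in E6578, with the remaining mice between 31.8 and 102 CPM. Erythroid markers (8 genes, with the globins *Hbb-bs* and *Hba-a1*) summed to 295 CPM in E5231 and to between 75.5 CPM in E1776 and 435 CPM in E6578, and E5231 was not highest for any of the 8. B cell markers (13 genes) summed to 70.1 CPM in E5231 and to between 48.1 and 66.7 CPM in the other mice. Dendritic cell, monocyte and neutrophil markers (12 genes) summed to 220 CPM in E5231, and were higher only in E5386 with 231 CPM. Microglia and macrophage markers (10 genes) summed to 1750 CPM in E5231 and to between 1140 and 1610 CPM elsewhere, and 8 of the 10 were highest in E5231. The part of these cells in the level of the T cell genes in E5231 was not tested.

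E1776, the mouse with the lowest sum of the 10 genes, was also lowest for 8 of 8 erythroid, 7 of 10 bone marrow and 8 of 13 B cell markers. Control E6732 was highest for 8 of the 13 B cell markers. Across the genotypes, 10 of 10 tested B cell, 8 of 8 erythroid and 8 of 8 tested bone marrow markers had log2 fold changes under 0. Their medians were -0.30, -0.50 and -0.39, and 9348 of all 19470 genes tested were under 0. Markers of 1 cell type are not independent of each other. Their sums overlapped between *Ager*-deleted mice and controls. These ran from 48.1 to 70.1 and 54.9 to 66.7 CPM for B cell markers. For erythroid markers they ran from 75.5 to 295 and 138 to 435 CPM, and for bone marrow markers from 14.6 to 110 and 24.5 to 102 CPM. The dendritic cell, monocyte and neutrophil list had a median of -0.40 over 10 tested genes, and the microglia list -0.01 over 10. None of these genes was called in edgeR's exact or quasi-likelihood test, and 1 of them, the microglial *P2ry12* with -0.32, had an unadjusted p under 0.05.

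Skeletal muscle markers (13 genes) summed to 990 CPM in control E5386 and 1560 CPM in control E5642, and to at most 30.9 CPM in the other mice, and 3 of them were among the 14 genes (0.0719%) called in edgeR's exact test, with 0 called in the quasi-likelihood test. Adipocyte markers (7 genes) summed to 173 CPM in E5386 and at most 22.4 CPM elsewhere, and liver markers (7 genes) to 611 CPM in E6732 and at most 2.84 CPM elsewhere. E5231 carried 16.7, 5.36 and 2.29 CPM of these lists. Without E5386 and E5642, none of the tested T cell genes was called.

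**Figure D4:**
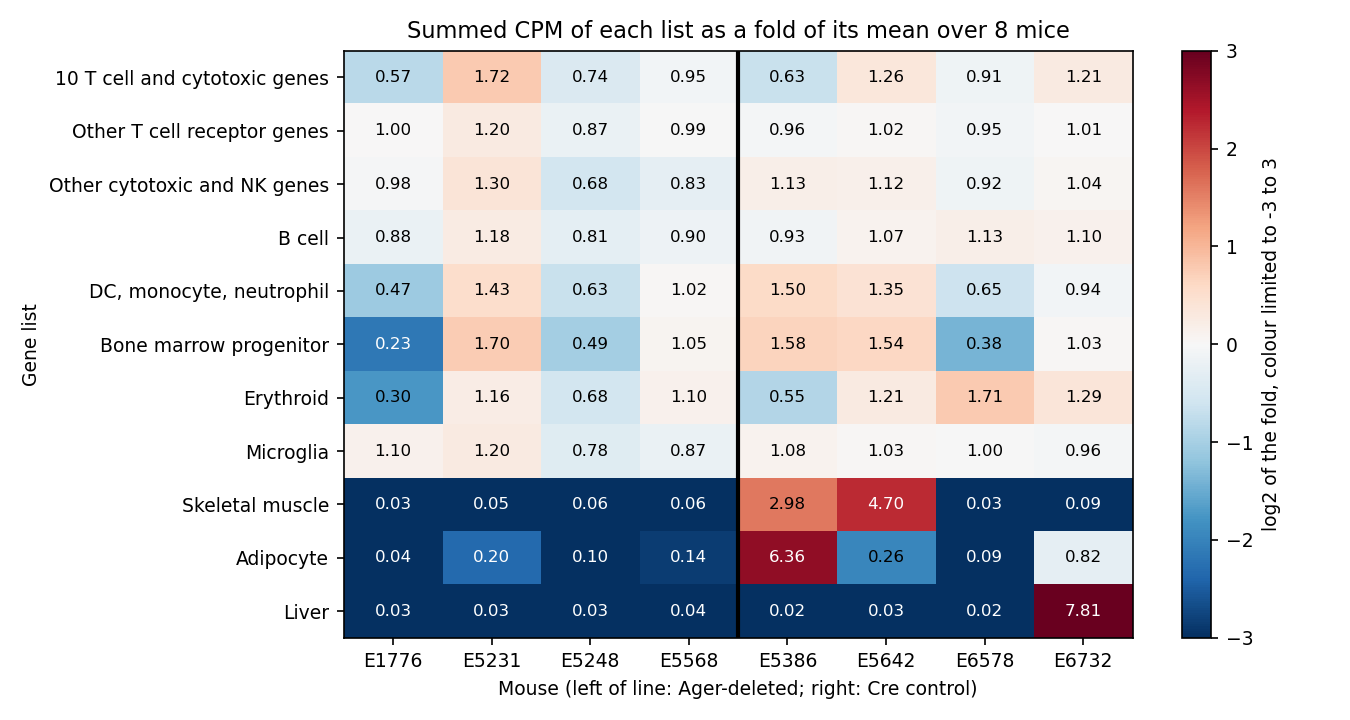
Summed CPM of each gene list per mouse as a fold of its mean over 8 mice, with the fold printed in each cell and coloured on a log2 scale limited to -3 to 3, *Ager*-deleted mice left of the line and controls right of it. E5231 was at 1.72 times the mean for the 10 genes and 1.7 times for bone marrow progenitor markers, and E1776 was at 0.568 and 0.226 times. The 2 lists did not go together in every mouse. Control E5386 was at 0.634 times for the 10 genes and 1.58 times for bone marrow progenitor markers, and control E6578 at 0.913 and 0.381 times.

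Other genes of T cell receptor signaling (23 listed, 13 tested) contained no gene called by either edgeR test and 1 with an unadjusted p under 0.05, with 8 log2 fold changes above 0, 5 below and a median of 0.06. *Lck*, the kinase that starts T cell receptor signaling, read 1.63, 3.1, 1.38 and 1.99 CPM across *Ager*-deleted mice and between 1.2 and 1.43 CPM across controls. The log2 fold change of *Lck* was 0.59 ± 0.24 (standard error), for which edgeR's exact test gave p = 0.0351 and an adjusted p of 1, and its highest value was again in E5231. *Cd28*, the costimulatory receptor, had -0.70 ± 0.36 (standard error), with E1776 lowest at 0.381 CPM and E6732 highest at 1.58 CPM, and was not called. *Prkcq*, a kinase of the same pathway, was at 31.1 ± 1.55 and 29.1 ± 1.45 CPM (SD, n = 4 each), far above every T cell chain. *Lcp2*, an adaptor also present in myeloid cells, was at 13.5 ± 2.98 and 13.9 ± 1.18 CPM (SD, n = 4 each), and *Tcf7*, a T cell transcription factor, at 3.6 ± 0.834 and 3.72 ± 0.724 CPM (SD, n = 4 each).

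*Trac*, the constant gene of the T cell receptor alpha chain, differed from the beta chain genes in level and in spread. It read 2.77, 2.99, 2.29 and 2.74 CPM across *Ager*-deleted mice, while controls read 2.63, 2.07, 2.6 and 3.02 CPM, with a dispersion index of 1.62. Per length it had 2.82 CPM per kb, above 0.941 for *Trbc2* and 0.287 for *Trbc1*. *Trac* in E5231 lay within the range of the other mice, whereas *Trbc1* was highest there with 0.431 CPM. The log2 fold change of *Trac* was 0.06, with a 95% interval from -0.28 to 0.40 that was narrower than that of any of the 6 tested genes.

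Other cytotoxic and natural killer cell genes (25 listed, 10 tested) had no call in either edgeR test, 0 unadjusted p-values under 0.05 and a median log2 fold change of -0.19. *Ccl5*, a chemokine of activated T cells and glia, was at 3.82 ± 1.65 (*Ager*-deleted) and 4.81 ± 1.23 CPM (control; SD, n = 4 each), and *Il2rb*, a subunit of the interleukin receptors of T cells and natural killer cells, at 1.71 ± 0.528 and 1.71 ± 0.361 CPM (SD, n = 4 each). *Cd244a*, an activating and inhibitory receptor of natural killer cells, had 2.84 ± 1.06 and 2.79 ± 0.276 CPM (SD, n = 4 each), and *Klrb1c*, the natural killer receptor NK1.1, had a log2 fold change of -0.35. The defining genes of killer cells were near the limit of detection. *Prf1*, the pore-forming perforin, had 1 to 6 counts per mouse, *Klrd1* 1 to 15 and *Ncr1* 0 to 11. A count of 0, for *Ncr1* in E5568, allows up to 0.0777 CPM by the detection floor of 3 counts, taken without TMM.

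Genes that guide T cells into tissue (19 listed, 17 tested) had no call in either edgeR test and none with an unadjusted p under 0.05, with 7 log2 fold changes above 0, 10 below and a median of -0.01. The most abundant were not particular to lymphocytes. *S1pr1*, a receptor for lymphocyte egress that astrocytes and endothelium also express, was at 126 ± 12.2 and 127 ± 7.19 CPM (SD, n = 4 each), and *Vcam1*, an endothelial adhesion molecule, at 62.8 ± 11.8 and 62.1 ± 4.63 CPM (SD, n = 4 each). *Selplg*, an adhesion ligand of leukocytes and microglia, had a log2 fold change of 0.04. The chemokine *Ccl19*, which draws T cells to lymphoid tissue, had -0.51 and was not called. Of the 19 genes 11 were highest in E5231.

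Checkpoint, residency and regulatory T cell genes (11 listed, 9 tested) had no call in either edgeR test, 0 unadjusted p-values under 0.05 and a median of -0.03. *Lag3*, an inhibitory receptor that microglia express as well as T cells, was at 64.5 ± 24.9 and 65.5 ± 10.3 CPM (SD, n = 4 each), more than the 10 T cell genes together. *Havcr2*, which encodes TIM-3, and *Cd274*, which encodes the checkpoint ligand PD-L1, had log2 fold changes of -0.07 and -0.03. *Foxp3*, the transcription factor of regulatory T cells, had 7 to 23 counts per mouse and a log2 fold change of 0.31, and the early activation marker *Cd69* had -0.30, neither called.

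The relation of *Cd3g* to the other genes was computed across the 8 mice, though its mice differed little beyond counting error (dispersion index 1.22), which limits any correlation. *Cd3g*, the CD3 chain with the most counts, had Pearson's r with the other 9 genes between 0.01 with *Trbc2* and 0.55 with *Gzmb* on the log2 CPM scale (n = 8). For *Gzmb*, exact permutation gave p = 0.143 for r and p = 0.0458 for Spearman's rho of 0.74, adjusted over 13 relations to 0.859 and 0.595, and r was 0.44 without E5568 and E5231. With *Cd3d*, its neighbour on the chromosome, r was 0.27 (exact permutation, p = 0.441, adjusted 0.859) and rho 0.10, and r was -0.20 without those 2 mice. With *Cd2* r was 0.15 (exact permutation, p = 0.727, adjusted 0.859) and rho 0.07, and r was 0.79 without the same 2 mice. None of the 13 relations, which included *Hbb-bs*, *Cxcl9*, *Cxcl10* and *Ager*, had an adjusted p under 0.05. The genes most like *Cd3g* among 19352 ranked outside the lists were *Stard3nl* and *Lhfpl5* with r of 0.95, and *Prmt1*, *Gm45623* and *Cnot9* with 0.94 (n = 8 mice). They were taken as the highest of many and are a description only.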

How the data were processed

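RNA was from the lumbar spinal cord of 8 male mice, 4 per genotype, named by mouse ID and grouped by the genotype in the labels. The deposited raw counts were made by the authors with Trimmomatic 0.36, STAR 2.7.3a on mm10 and featureCounts (Subread 1.6.3) on GENCODE M25, as the processing notes and the study's methods give them. The authors also deposited log2 TMM-normalized CPM from edgeR, which recomputation from the counts matched within 4.78e-06. No sample column was left unused. The libraries were stranded and poly(A)-selected, and the strand setting of the counting is not given in the sources used here. The methods describe no perfusion for cords used for RNA.

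Genes were filtered with filterByExpr (minimum 10 counts), TMM-normalized and tested in edgeR 4.0.16 (R 4.3.3) with the exact test on dispersions from estimateDisp, and p-values were adjusted by Benjamini-Hochberg over all 19470 genes tested (threshold 0.05). Standard errors and intervals are from edgeR's quasi-likelihood fit, with a minimum of 5 counts for *Cd3d*, *Cd2* and *Gzmb* and no filter for *Cd8b1*. Per-mouse log2 CPM used a prior count of 2 and were compared by exact two-sided permutation in SciPy 1.17.1. DESeq2 1.42.0, limma-voom (limma 3.58.1), other normalizations, filters and dispersions, and each mouse left out in turn were alternatives. The fits were tested on simulated data. The 28 pairs of mice had a chi-square of counts per degree of freedom between 15.7 and 117, so no pair of libraries was alike within sampling noise.

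The members and all gene lists were chosen with earlier results of these data known, and the lists were compiled by hand, not from a database. Beside the members, the genes named are the 3 with the highest mean CPM and the 2 with the largest fold change among the tested genes of each lymphocyte list, any list gene called, defining markers, *Ager*, and the 5 genes most like *Cd3g*. A gene named by this rule is not reported here. Genes were matched by symbol to GENCODE M21 (GRCm38, which is mm10) for positions and sequences.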

Additional observations from a re-analysis of the deposited data

Results flagged for a closer look

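The *Cd3d* level of mouse E5231, 0.431 CPM, stood apart from the other *Ager*-deleted mice, with a gap to the nearest of 0.864 of the group's range on the log2 CPM scale, above Dixon's 95% critical value for 4 samples. It was the only 1 flagged of 22 groups examined, and chance flags about 1 in 20. The value rests on 16 counts, against 9 or 10 in the other 3 mice, the spread of *Cd3d* within genotypes was below counting error (dispersion index 0.675), and the cause was not tested.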

How the results depend on the processing

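No member was called under any alternative in which it was tested, leaving out single mice included. *Cd8b1* was tested only with no filter, and *Cd3d* and *Gzmb* only with no filter or a minimum of 5 counts. *Cd2* was tested in some of the alternatives. The log2 fold changes of the tested members kept their sign under other normalizations (upper quartile, RLE size factors, library totals). The number of all genes called, 14, was 1 in the quasi-likelihood test with all mice and without E5231, 1 with limma-voom, 25 with DESeq2, 78 with common and tagwise dispersions, 30 with a minimum of 5 counts, 67 without E5386 and E5642 and 48 at an adjusted p of 0.1, and between 3 and 98 with each mouse left out. It was lowest without E5231. Members whose genotypes did not overlap numbered between 0 and 1 with each mouse left out (*Nkg7* without E5231, *Cd3d* without E5386 or E5568). For sets with a mouse left out, the share of all genes tested is given only without E5231 (3.66%, *Ager*-deleted lower). The cause of these changes was not tested.

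The sign changed for several values, none of them called. With limma-voom *Cd3e* had -0.08, *Cd4* 0.09 and *Trbc2* -0.09, and without E5386 and E5642 *Trbc2* had -0.0026 and *Cd2* -0.04. In the quasi-likelihood test without E5231 *Cd3e* had -0.36, *Cd8a* -0.43 and *Trbc2* -0.24. Leaving out single mice, the log2 fold change ranged from -0.36 to 0.41 for *Cd3e*, 0.12 to 0.55 for *Cd3g*, -0.80 to -0.05 for *Cd4*, -0.43 to 0.62 for *Cd8a*, -0.24 to 0.31 for *Trbc2*, -0.07 to 0.21 for *Cd2* and -0.90 to 0.03 for *Nkg7*. The difference of mean log2 CPM ranged from -0.36 to 0.40 for *Cd3e*, -0.81 to 0.46 for *Cd4*, -0.40 to 0.41 for *Cd8a*, -0.15 to 0.52 for *Cd8b1*, -0.31 to 0.23 for *Trbc2* and -0.32 to 0.11 for *Cd2*. Without E5568 and E5231, r with *Cd3g* changed sign for *Cd3d* (-0.20), *Cd8b1* (-0.10), *Nkg7* (-0.00313), *Cxcl10* (-0.28) and *Ager* (0.30).

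No paired analysis was possible because the labels give mouse IDs and no shared replicate numbers. Counts of 2 to 94 per gene and mouse limit the precision, intervals cover counting error or the spread between these mice only, and 4 mice per genotype cannot give a permutation p below 0.0286.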
